A study of Mus musculus with 10 samples.

Results

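The IGKV3 genes are the kappa light-chain V genes that lie nearest to the J genes, and they were followed here in bulk B cell receptor sequencing of deep cervical lymph nodes from glioma-bearing mice. Members were the kappa sequences whose V call, with the allele removed, named only genes beginning IGKV3. They named 10 of the 118 kappa V genes, and of the 234 V genes of all receptor chains, found in the 10 libraries. Of these, 9 are functional genes in the RefSeq table for GRCm38.p6 (IGKV3-1, -2, -3, -4, -5, -7, -9, -10 and -12). The other, the pseudogene IGKV3-8, had 2 sequences with 3 counts in all, both marked productive, and is not described further. No IGKV3 call named several genes.

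The mice were wild type (WT) and had received GL261 cells, a mouse glioma line, by intracranial injection. One group was treated with anti-CTLA-4 antibody (n = 5), which blocks an inhibitory receptor of T cells, and the other with isotype IgG (n = 5). Nodes were taken on day 20 after tumour injection, all cells of each mouse were dissociated, and 1 receptor library was made per mouse. Sex, age and antibody dose are not given in the labels. The libraries hold receptor transcripts alone, so no marker of tissue or cell type could be checked.

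A kappa chain gene is made by joining 1 V gene to 1 J gene, and the join forms the third complementarity-determining region (CDR3), a loop that contacts antigen. A cell whose first join fails or makes a self-reactive chain can join again, with a V gene farther upstream and a J gene farther downstream, which can delete what lay between. The IGKV3 genes, the Vκ21 group of the older literature (Igk-V21 names in RefSeq), sit at the J-proximal end of the locus, where in the RefSeq order IGKJ1 is followed by IGKV3-1 and the row ends with IGKV3-12 before IGKV6-13. Bulk libraries do not show which heavy chain a kappa chain was paired with.

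The first complementarity-determining region (CDR1) is 1 of the stretches in which the members differ, and its deposited germline sequences, from chromosome 6, are shown to let the genes be compared. Capitals mark positions at which the 9 genes differ.
IGKV3-1: GaAagtgtTGAATATTAtGgCACAagttTA
IGKV3-2: GaAagtgtTGATAATTAtGgCATTagttTT
IGKV3-3: CaGagtgtCGATTATAAtGgAATTagttAT
IGKV3-4: CaAagtgtTGATTATGAtGgTGATagttAT
IGKV3-5: GaAagtgtTGATAGTTAtGgCAATagttTT
IGKV3-7: CaAagtgtCAGTACATCtAgCTATagttAT
IGKV3-9: GaAagtgtCAGTTTTGCtGgTACAagttTA
IGKV3-10: GaAagtgtTGATAGTTAtGgCAATagttTT
IGKV3-12: AaAagtgtCAGTACATCtGgCTATagttAT

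IGKV3-5 and IGKV3-10 had the same CDR1 and were the closest pair, with 6 differences in 302 germline V bases (98.01% identity), all outside CDR1. IGKV3-7 and IGKV3-12 differed at 10 of 301 bases (96.7%), 2 of them in CDR1. The farthest pair, IGKV3-7 and IGKV3-9, were 84.1% identical. Calls between the closest pair rest on few bases, and mutated sequences of these genes are the most open to a wrong name.

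The junction runs from the last V cysteine codon through the CDR3 to the J gene. The same IGKV3 junction can be found in many mice, so it does not by itself mark a single clone. The leading clonotypes described below had these junctions, in which lower case marks the bases that the deposited alignment gives to V and capitals mark the rest.
IGKV3-7 with IGKJ2: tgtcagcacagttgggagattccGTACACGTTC
IGKV3-7 with IGKJ4: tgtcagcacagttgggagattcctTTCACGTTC
IGKV3-2 with IGKJ2: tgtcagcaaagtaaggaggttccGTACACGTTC
IGKV3-2 with IGKJ1: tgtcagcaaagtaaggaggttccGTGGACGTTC
IGKV3-12 with IGKJ1: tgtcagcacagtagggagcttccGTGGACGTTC
IGKV3-12 with IGKJ5: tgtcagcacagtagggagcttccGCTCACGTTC
IGKV3-12 with IGKJ5, second form: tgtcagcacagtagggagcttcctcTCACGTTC
IGKV3-1 with IGKJ1: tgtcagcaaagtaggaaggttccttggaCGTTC

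A library held 33568 to 63017 sequences and 382184 to 790139 deposited counts, of which 200369 to 448348 counts were kappa. IGKV3 took 329 to 812 sequences and 5431 to 46931 counts per mouse. Sequences were joined into clonotypes, each a distinct combination of V call, J gene and junction nucleotides within a mouse. There were 2469 productive IGKV3 clonotypes over the 10 mice, with 183, 261, 190, 302 and 234 in anti-CTLA-4 mice 1 to 5 and 223, 264, 311, 241 and 260 in isotype mice 1 to 5. The labels do not say if these counts stand for reads or for molecules, so errors are given as the spread between mice. In bulk libraries, more cells of a clone, several clones with the same junction and more transcript per cell cannot be told apart.

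IGKV3-12 was the most represented member by number of clonotypes and IGKV3-3 and IGKV3-9 the least. Over the 10 mice, IGKV3-12 made up 1.42% ± 0.622 of productive kappa clonotypes (SD, n = 10 for this and the following shares), rank 24 of 135 kappa V calls. IGKV3-4 followed with 1.12% ± 0.153 and IGKV3-7 with 1.09% ± 0.189. IGKV3-10 (0.870% ± 0.0849), IGKV3-5 (0.841% ± 0.0980) and IGKV3-2 (0.839% ± 0.158) formed a middle group. IGKV3-1, the gene next to the J genes, had 0.519% ± 0.120. IGKV3-9 had 0.186% ± 0.0491 and IGKV3-3 had 0.183% ± 0.0389, rank 95. The order of the shares was thus not the order of distance from the J genes. A relation between share and distance was not tested.

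Neighbours in this order were compared within mice with an exact sign-flip permutation test, adjusted over 8 pairs. Only 3 steps were larger than the spread over mice: IGKV3-7 above IGKV3-10, IGKV3-2 above IGKV3-1, and IGKV3-1 above IGKV3-9, each in 10 of 10 mice with an adjusted p of 0.00521. The lead of IGKV3-12 over IGKV3-4 was present in 6 of 10 mice (adjusted p = 0.227, exact permutation test). The gap was widest in isotype mouse 5, in which IGKV3-12 formed 97 clonotypes, or 3.16%, against 30 to 50 clonotypes in the other mice.

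By deposited counts the order of the means was another one. IGKV3-7 had the highest mean, 1.61% ± 2.32 of productive kappa counts (SD, n = 10), followed by IGKV3-2 with 1.05% ± 0.850 and IGKV3-12 with 0.736% ± 0.516. IGKV3-7 lay above IGKV3-2 in 3 of 10 mice (adjusted p = 0.538, exact permutation test), and without isotype mouse 3 its mean was 1.05%, beside 0.842% for IGKV3-2. IGKV3-4 had 0.654%, IGKV3-10 had 0.283%, IGKV3-5 had 0.272% and IGKV3-1 had 0.161%. IGKV3-3 (0.0156%) and IGKV3-9 (0.0100%) were again last. IGKV3-7 averaged 152 counts per clonotype and IGKV3-2 averaged 121, whereas IGKV3-3 had 7.73 and IGKV3-9 had 4.68. The 3 most counted clonotypes held 48536 of the 58155 IGKV3-7 counts, and the rest of that gene averaged 25.3 counts. The median clonotype had 3 counts for IGKV3-7, IGKV3-2 and IGKV3-3 and 4 for IGKV3-9. Only the steps from IGKV3-4 to IGKV3-10 and from IGKV3-1 to IGKV3-3 passed the same exact permutation test (adjusted p = 0.0156 for both).

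**Figure D1:**
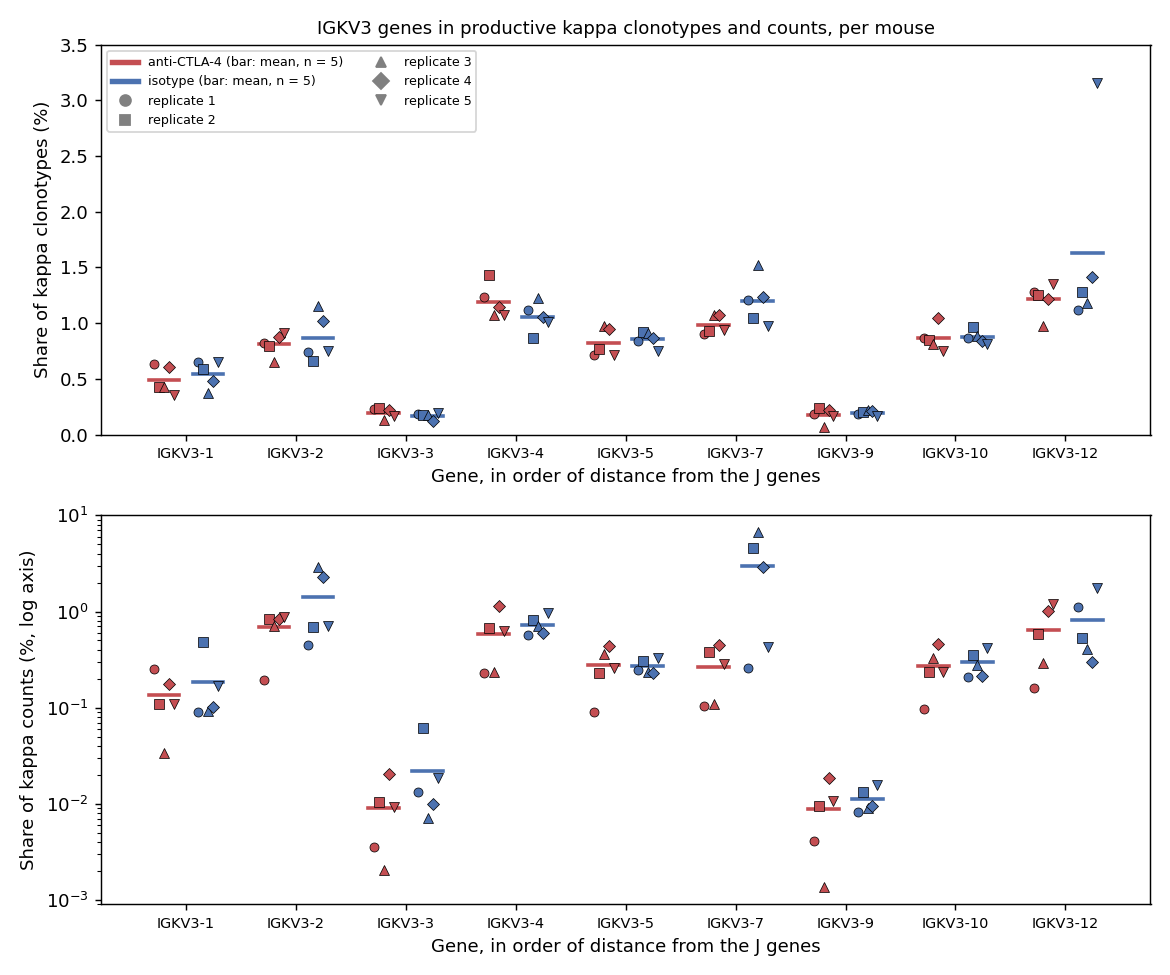
Share of productive kappa clonotypes (top, percent) and of productive kappa counts (bottom, percent, log axis) for each IGKV3 gene, in order of distance from the J genes. Points are mice and bars are means of 5 mice. IGKV3-12 of isotype mouse 5 stands at 3.16% of clonotypes, and IGKV3-7 of isotype mice 2, 3 and 4 stands at 4.53%, 6.68% and 2.90% of counts.

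The next question was whether the use of the IGKV3 genes differed with CTLA-4 blockade. No member that was tested passed the threshold for a change in its number of clonotypes. Of the 90 kappa V calls tested with edgeR's quasi-likelihood test, 0 passed an adjusted p of 0.05, a background of 0%, and 3 had an unadjusted p under 0.05 (3.33%). DESeq2 also called 0, with 2 unadjusted (2.22%). Of the 9 members, 7 passed the filter on low numbers. IGKV3-3 and IGKV3-9 did not pass it.

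Among the 7, the log2 fold change, anti-CTLA-4 over isotype, was above 0 for 2 and below 0 for 5, with a median of -0.05 beside 0.01 over all 90 V calls. The lowest unadjusted p belonged to IGKV3-7, at 0.90%, 0.93%, 1.07%, 1.07% and 0.94% of clonotypes in anti-CTLA-4 mice 1 to 5 and 1.21%, 1.05%, 1.52%, 1.23% and 0.98% in isotype mice 1 to 5. The groups overlapped, and its log2 fold change was -0.25 (SE 0.14, edgeR adjusted p = 0.893). IGKV3-12 had -0.35 (SE 0.25, edgeR adjusted p = 0.893) and IGKV3-4 had 0.22 (SE 0.15, edgeR adjusted p = 0.893). For IGKV3-12 the value was 0.00706 without isotype mouse 5. The other 4 lay between -0.11 and 0.02. Of the other J-proximal genes, taken as those of other families with position numbers 13 to 30, 15 were tested and 0 called, with 10 above 0, 5 below 0 and a median of 0.06.

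The family as a whole took 6.76% ± 0.455 of productive kappa clonotypes in anti-CTLA-4 mice and 7.40% ± 0.690 in isotype mice (SD, n = 5 each). The difference of -0.637 percentage points was not larger than the spread between mice (p = 0.127, adjusted p = 0.339, two-sided exact permutation test). All p-values for 1 value per mouse come from this test over all splits of the mice, adjusted over 8 measures of the family, and the smallest p that it allows is 0.00794. The labels do not tie the mice to cages, sexes or batches, so the p-values cover only the spread between these mice.

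By counts, IGKV3 took 1.14%, 3.06%, 2.06%, 4.54% and 3.62% of productive kappa counts in anti-CTLA-4 mice 1 to 5 and 2.96%, 7.78%, 11.3%, 6.65% and 4.81% in isotype mice 1 to 5. Isotype mice 2, 3, 4 and 5 lay above all anti-CTLA-4 mice, and isotype mouse 1 lay inside their range. The means were 2.88% ± 1.33 in anti-CTLA-4 mice and 6.70% ± 3.16 in isotype mice (SD, n = 5 each), a difference of -3.81 percentage points that did not pass after adjustment (p = 0.0397, adjusted p = 0.159, exact permutation test). A single clonotype of another kappa gene took 36.1%, 10.4%, 28.2%, 5.15% and 14.01% of the other kappa counts in anti-CTLA-4 mice 1 to 5 and 10.7%, 13.8%, 6.67%, 23.5% and 8.63% in isotype mice 1 to 5. The part of these large clonotypes in the IGKV3 share was not tested. Without isotype mice 3 and 4 the difference was -2.30 percentage points (adjusted p = 0.571, exact permutation test).

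Most of the difference in counts lay in IGKV3-7. It had 0.105%, 0.376%, 0.110%, 0.450% and 0.284% of kappa counts in anti-CTLA-4 mice 1 to 5, and 0.261%, 4.53%, 6.68%, 2.90% and 0.423% in isotype mice 1 to 5. Isotype mice 2, 3 and 4 were high, whereas isotype mice 1 and 5 overlapped the anti-CTLA-4 mice. In edgeR on the deposited counts of 98 V calls, of which 0 were called (0%) and 14 had an unadjusted p under 0.05 (14.3%), its log2 fold change was -3.21 (SE 0.81, adjusted p = 0.249). With IGKV3-7 left out, the family had 2.62% ± 1.19 of kappa counts in anti-CTLA-4 mice and 3.74% ± 0.795 in isotype mice (SD, n = 5 each).

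The largest IGKV3 clonotype of a mouse held 18.5%, 13.2%, 17.9%, 10.8% and 25.9% of its IGKV3 counts in anti-CTLA-4 mice 1 to 5 and 27.2%, 53.6%, 55.3%, 40.2% and 19.0% in isotype mice 1 to 5. Only anti-CTLA-4 mouse 5 lay inside the range of the isotype mice, and the other 4 lay below all of them. The means were 17.3% ± 5.82 in anti-CTLA-4 mice and 39.1% ± 16.0 in isotype mice (SD, n = 5 each), a difference of -21.8 percentage points (p = 0.0159, adjusted p = 0.127, exact permutation test), which did not pass after adjustment. With the largest IGKV3 clonotype of each mouse left out, the family's share of kappa counts averaged 2.42% in anti-CTLA-4 mice and 3.87% in isotype mice.

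**Figure D2:**
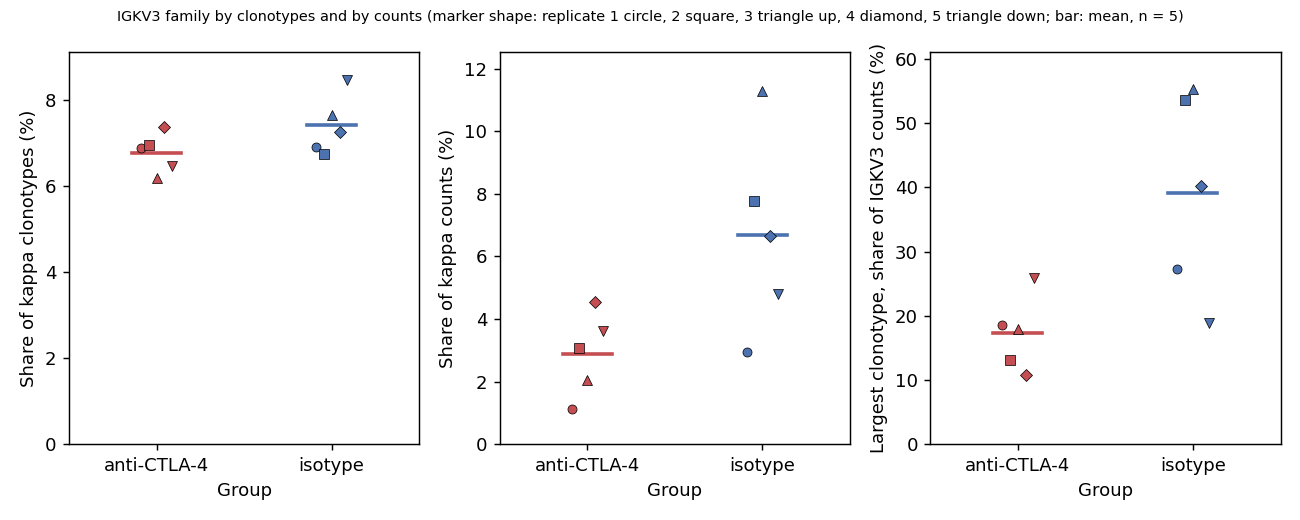
IGKV3 share of productive kappa clonotypes (left), of productive kappa counts (middle) and share of IGKV3 counts in the largest IGKV3 clonotype (right), all in percent, for anti-CTLA-4 mice and isotype mice. Points are mice and bars are means of 5. In the middle panel, 4 of the 5 isotype mice lie above all anti-CTLA-4 mice, and in the left panel the groups overlap.

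The large clonotypes were few and mostly unmutated. The IGKV3-7 with IGKJ2 junction shown above had 25795 counts in isotype mouse 3 and 8360 in isotype mouse 4. In isotype mouse 3 this was 6.26% of all productive kappa counts and the most counted kappa clonotype. The same nucleotide junction was found in all 10 mice, with 137, 299, 157, 552 and 349 counts in anti-CTLA-4 mice 1 to 5 and with 238, 355 and 288 counts in isotype mice 1, 2 and 5. Its most counted sequence had 0 V mismatches to germline in both mice. The leader of isotype mouse 2, IGKV3-7 with IGKJ4, had 14381 counts, also with 0 mismatches, and occurred in 3 mice, with at most 133 counts in another.

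IGKV3-2 with IGKJ2, also found in all 10 mice, had 10393 counts in isotype mouse 3 and 5393 in isotype mouse 4. It had 164, 1202, 1087, 698 and 1284 counts in anti-CTLA-4 mice 1 to 5 and 417, 574 and 317 counts in isotype mice 1, 2 and 5. Isotype mice 3 and 4 were thus high for the same 2 clonotypes.

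The overlap of those 2 libraries was set beside that of the other pairs of mice. No IGKV3 sequence with at least 2 mismatches before the junction was common to both, but 43 of the 45 pairs of mice shared none, so this says nothing about the pair. Of the other kappa clonotypes with at least 1000 counts in one of the 2 mice, 80.95% to 84.7% had at least 500 counts in the other, which ranked 2 and 3 of the 90 ordered pairs (29.8% to 85.7% for all others). With IGKV3 included, the share of isotype mouse 3 found in isotype mouse 4 was 85.5%, rank 1 of 90. A second measure, with thresholds chosen after the first had been seen, counted kappa clonotypes with at least 1000 counts in 1 mouse of a pair, at least 100 in the other and under 50 in each remaining mouse. Isotype mice 3 and 4 had 6 of these, the most of 45 pairs, followed by 4 for anti-CTLA-4 mice 3 and 4 and 3 for isotype mice 1 and 2, and 0 of the 6 were IGKV3. Both measures put this pair at or near the top, by a small margin over the next pairs. These values are a description with no test.

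The leaders of the other mice were smaller. They were IGKV3-1 with IGKJ1 (769 counts) in anti-CTLA-4 mouse 1, IGKV3-2 with IGKJ2 (1202) in mouse 2, IGKV3-2 with IGKJ1 (1615) in mouse 3, IGKV3-12 with IGKJ5 (1597) in mouse 4 and IGKV3-12 with IGKJ1 (2640) in mouse 5. In isotype mice they were the second form of IGKV3-12 with IGKJ5 (2543 counts) in mouse 1 and the first form (1756) in mouse 5. All 10 leading junctions were 33 nucleotides long. The IGKV3-12 leader of anti-CTLA-4 mouse 4 had 3 V mismatches in its most counted sequence, and that of anti-CTLA-4 mouse 1 had 1. The other 8 had 0.

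**Figure D3:**
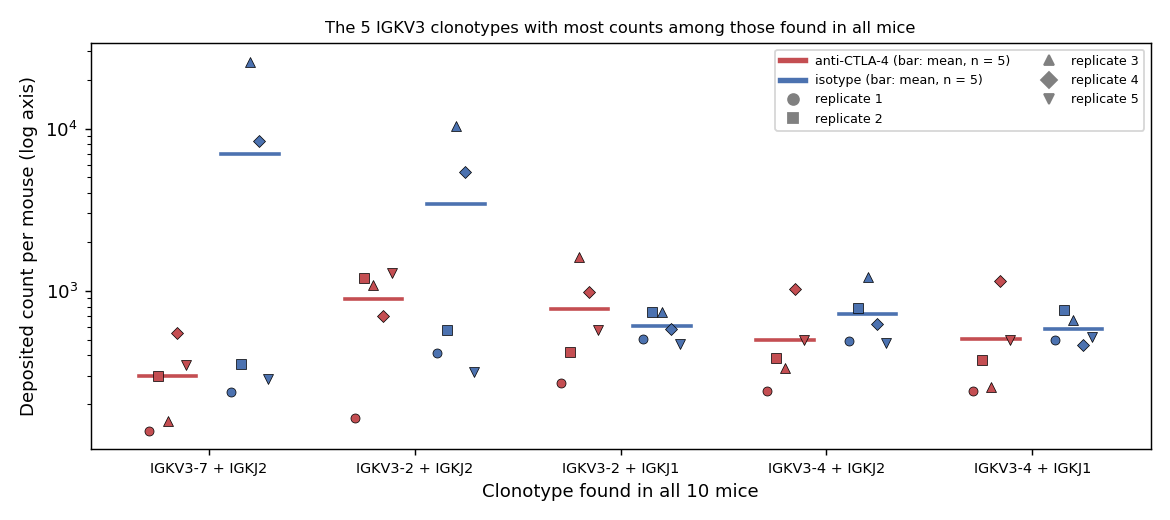
Deposited counts (log axis) in each mouse of the 5 IGKV3 clonotypes with the most counts among those found in all 10 mice. Points are mice and bars are means of 5. Isotype mice 3 and 4 lie apart for IGKV3-7 with IGKJ2 and IGKV3-2 with IGKJ2, and the groups overlap for the other 3.

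Clonotypes found in every mouse held most of the IGKV3 counts. Of the distinct IGKV3 clonotypes, 620 (65.2%) occurred in 1 mouse and 81 (8.52%) in all 10, beside 64.8% and 7.66% for other kappa genes. Those 81 held 87.5% to 97.02% of a mouse's IGKV3 counts in 9 mice and 42.6% in isotype mouse 2, whose leader was not among them. The 5 most counted were the IGKV3-7 and IGKV3-2 clonotypes above and 2 of IGKV3-4, with IGKJ2 (241 to 1209 counts) and with IGKJ1 (241 to 1146 counts). No bases were inserted between V and J in 80.7% ± 3.38 of IGKV3 clonotypes, against 69.7% ± 2.42 of other kappa clonotypes (SD, n = 10), higher in 10 of 10 mice.

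Joining to the J genes was compared next. IGKV3 clonotypes used IGKJ1 more often in anti-CTLA-4 mice. The IGKJ1 share of productive IGKV3 clonotypes was 34.4%, 34.9%, 34.2%, 29.8% and 30.3% in anti-CTLA-4 mice 1 to 5 and 28.3%, 29.2%, 25.1%, 26.6% and 24.2% in isotype mice 1 to 5. All 5 anti-CTLA-4 mice lay above all 5 isotype mice. The means were 32.7% ± 2.44 in anti-CTLA-4 mice and 26.7% ± 2.07 in isotype mice (SD, n = 5 each), a difference of 6.07 percentage points (p = 0.00794, adjusted p = 0.0317 over the 4 functional J genes, exact permutation test).

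That call depended on how clonotypes were counted. Near copies, clonotypes 1 junction substitution away from one of the same mouse, V call and J gene with at least 20 times the count, were 24.5% of the IGKV3 clonotypes of anti-CTLA-4 mouse 2 and 24.1%, 19.1% and 20.8% of those of isotype mice 3, 4 and 5, against 11.7% to 15.5% in the remaining mice. Without them the IGKJ1 share was 30.2% in anti-CTLA-4 mice and 28.4% in isotype mice, a difference of 1.84 percentage points (adjusted p = 0.127, exact permutation test). In non-productive IGKV3 clonotypes the difference was also 1.84 percentage points (adjusted p = 0.873, exact permutation test). The adjusted p was 0.0635 without anti-CTLA-4 mouse 2 or without isotype mouse 1, 3, 4 or 5 (5.47 to 6.47 percentage points, exact permutation test).

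The other J genes showed no difference that passed the test. IGKJ2 was used by 31.9% ± 2.03 of IGKV3 clonotypes in anti-CTLA-4 mice and 36.7% ± 5.96 in isotype mice (adjusted p = 0.286, exact permutation test, n = 5 each), with isotype mice 3, 4 and 5 at 39.2%, 41.1% and 42.7% and the rest at 28.9% to 34.1%. IGKJ4 was used by 15.1% in anti-CTLA-4 mice and 16.4% in isotype mice, and IGKJ5 by 20.2% in both.

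Set against the other kappa genes of the same mice, IGKV3 clonotypes used the upstream J genes more and the downstream ones less. IGKJ5 was used by 20.2% ± 1.52 of IGKV3 clonotypes and 26.6% ± 1.34 of other kappa clonotypes (SD, n = 10), a difference of -6.47 percentage points seen in 10 of 10 mice (adjusted p = 0.00879 over 9 measures, two-sided exact sign-flip permutation test). IGKJ4 was lower by 2.65 percentage points in 8 of 10 mice (a difference of -2.65, adjusted p = 0.0198, same exact permutation test). IGKJ1 was higher by 4.22 and IGKJ2 by 4.90 percentage points, each in 8 of 10 mice (adjusted p = 0.0198 and 0.0176, same exact permutation test). The averages of the groups were unlike, though single mice of the groups overlapped for both genes. The IGKJ1 difference averaged 7.59 percentage points in anti-CTLA-4 mice and 0.858 in isotype mice. The IGKJ2 difference averaged 2.48 in anti-CTLA-4 mice and 7.32 in isotype mice. Between the groups, neither passed (adjusted p = 0.0635 for IGKJ1 and 0.286 for IGKJ2, exact permutation test). Non-productive clonotypes showed the IGKJ5 difference at -6.68 percentage points (adjusted p = 0.00879) and the IGKJ1 difference at 6.28 (adjusted p = 0.0132, exact permutation test). They did not show those of IGKJ2 (0.627, adjusted p = 0.650) or IGKJ4 (-0.230, adjusted p = 0.852, exact permutation test).

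The pooled J use of the members is given as a description. IGKJ1 was joined in 43.6% of IGKV3-1 clonotypes and 43.8% of IGKV3-3 clonotypes, and in 22.5% of IGKV3-7 and 22.1% of IGKV3-12 clonotypes, pooled over mice. IGKV3-1 stands first and IGKV3-12 last in the row from the J genes. Between them IGKV3-2 had 29.8%, IGKV3-4 32.1%, IGKV3-5 30.2%, IGKV3-9 30.3% and IGKV3-10 33.1%. These pooled shares have no test, and some mix groups with unlike pooled shares. IGKV3-1 had 38.1% in anti-CTLA-4 mice and 48.4% in isotype mice. IGKV3-3 had 50% in anti-CTLA-4 mice and 36.7% in isotype mice, both genes with 30 to 95 clonotypes per group. IGKV3-7 had 28.8% in anti-CTLA-4 mice and 17.4% in isotype mice, and IGKV3-12 had 27.1% and 18.3%, with 170 to 278 clonotypes per group. Without near copies, IGKV3-7 had 28.8% in anti-CTLA-4 mice and 22.7% in isotype mice, and IGKV3-12 had 24.3% and 21.1%.

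**Figure D4:**
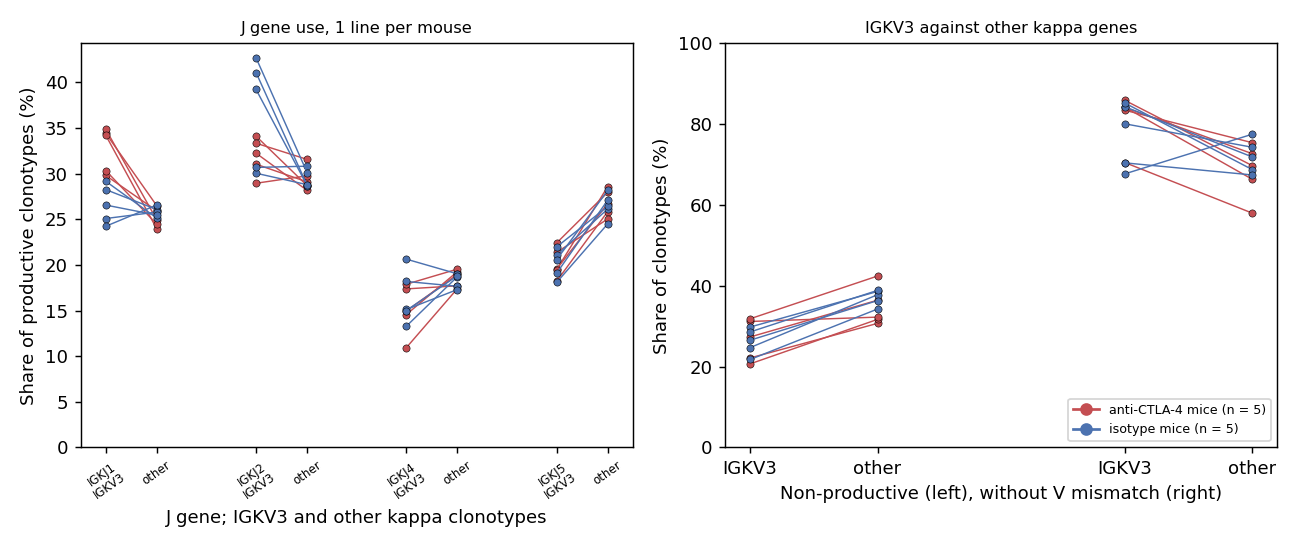
Share of productive clonotypes with each J gene (left) and shares of non-productive clonotypes and of clonotypes without a V mismatch (right), all in percent, for IGKV3 and for other kappa genes. Each line joins the 2 values of 1 mouse. IGKJ5 and the non-productive share are lower for IGKV3 in all 10 mice.

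Fewer IGKV3 clonotypes were non-productive than those of other kappa genes. The non-productive share was 26.4% ± 4.01 for IGKV3 and 35.9% ± 3.70 for other kappa genes (SD, n = 10), a difference of -9.48 percentage points seen in 10 of 10 mice (adjusted p = 0.00879, exact sign-flip permutation test). It did not differ beyond the spread between groups, at 26.6% ± 5.10 in anti-CTLA-4 mice and 26.3% ± 3.19 in isotype mice (adjusted p = 0.881, exact permutation test, n = 5 each). By member it ranged over the pooled mice from 36.3% for IGKV3-7 and 34.2% for IGKV3-2 to 15.2% for IGKV3-1 and 12% for IGKV3-9. When each clonotype was kept only in the mouse where it had most counts, the difference from other kappa genes was -4.65 percentage points (adjusted p = 0.135, exact permutation test).

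Of the 902 non-productive IGKV3 clonotypes, 867 (96.1%) had a frame shift, close to the 95.4% of other kappa genes. Together the 902 had 4877 counts. Most of those counts lay in 2 clonotypes of IGKV3-2 with IGKJ2, shown here because they join the same 2 genes as a leading productive clonotype above. Lower case again marks V bases.
anti-CTLA-4 mouse 3: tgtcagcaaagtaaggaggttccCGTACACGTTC
anti-CTLA-4 mouse 1: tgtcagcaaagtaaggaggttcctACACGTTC

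The 34-nucleotide junction of anti-CTLA-4 mouse 3 had 1262 counts and the 32-nucleotide junction of anti-CTLA-4 mouse 1 had 1193. They were 86.7% and 93.0% of the non-productive IGKV3 counts of those mice, and each was the most counted non-productive kappa clonotype of its mouse. Neither exceeded 43 counts in another mouse.

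The CDR3 was short and even in length, as it was in other kappa genes. A length of 9 amino acids was found in 60.1% of productive IGKV3 clonotypes, 8 in 20.5% and 10 in 13.9%. The same lengths were found in 58.3%, 18.2% and 14.4% of productive clonotypes of other kappa genes. The mean was 8.95 amino acids in anti-CTLA-4 mice and 8.93 in isotype mice (adjusted p = 0.614, exact permutation test, n = 5 each). The share with 9 amino acids was 59.6% ± 5.38 in anti-CTLA-4 mice and 61.2% ± 2.73 in isotype mice (adjusted p = 0.662, exact permutation test). Within mice the mean was 8.94 for IGKV3 and 8.96 for other kappa genes (adjusted p = 0.119, exact permutation test, n = 10).

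IGKV3 genes carried fewer V mismatches, which are differences from the deposited germline. Mismatches do not tell somatic hypermutation, the process that alters antibody genes in germinal centres, from errors of copying or an allele unlike that germline. IGKV3 clonotypes had 0.175 ± 0.0942 mismatches per 100 nucleotides and other kappa clonotypes 0.478 ± 0.0573 (SD, n = 10). The difference of -0.303 was seen in 9 of 10 mice (adjusted p = 0.0117, exact sign-flip permutation test). The exception was isotype mouse 5, with 0.389 for IGKV3 and 0.383 for other kappa genes. Some V positions of other kappa genes were mismatched in over 50% of a V call's clonotypes. Without these positions, other kappa clonotypes had 0.428 and IGKV3 was unchanged at 0.175. The difference was then -0.254 (adjusted p = 0.0117, exact sign-flip permutation test). Clonotypes without any mismatch were 79.6% ± 7.14 of IGKV3 and 70.2% ± 5.58 of other kappa clonotypes (SD, n = 10, adjusted p = 0.0198, exact permutation test). The mean number of counts per clonotype was also lower, with a log2 of 5.71 for IGKV3 and 6.57 for other kappa genes (adjusted p = 0.0198, exact permutation test), lower in 8 of 10 mice. The exceptions were isotype mouse 2 (6.67 for IGKV3, 6.44 for other kappa genes) and isotype mouse 3 (7.23 and 6.61). In isotype mouse 4 the values were close (6.43 and 6.56). The median clonotype did not follow the mean: it had 2 to 5 counts for IGKV3 and 2 to 4 for other kappa genes, higher for IGKV3 in 4 mice, equal in 5 and lower in 1.

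Mismatches were densest in CDR1, at 0.209 per 100 nucleotides over all mice, followed by the second complementarity-determining region (0.149) and the second framework (0.148), with 0.123 in the third and 0.102 in the first framework. Other kappa genes had 0.618 in CDR1. The IGKV3 values by region include the mismatch-rich clonotypes of isotype mouse 5 described below and were not computed without them. Among members, IGKV3-12 (0.282) and IGKV3-5 (0.242) had the most and IGKV3-9 (0.0205) the fewest, pooled over mice. The value of IGKV3-12 was 0.149 without isotype mouse 5 and 0.128 without near copies, below the 0.259 and 0.210 of IGKV3-5. IGKV3-3 had 0.132 with isotype mouse 5 and 0.0290 without it. Between groups the level was 0.149 ± 0.0804 in anti-CTLA-4 mice and 0.201 ± 0.109 in isotype mice (adjusted p = 0.614, exact permutation test, n = 5 each). The unmutated share was 81.6% ± 6.29 in anti-CTLA-4 mice and 77.5% ± 8.05 in isotype mice (adjusted p = 0.614, exact permutation test).

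The high level of isotype mouse 5 lay in IGKV3-12 joined to IGKJ2. That combination formed 66 of its clonotypes (25.4% of its IGKV3 clonotypes), of which 59 had a 33-nucleotide junction and 54 had at least 1 V mismatch. The median was 3.5 mismatches and the highest 9, which came to 1.16 per 100 nucleotides. The remaining 194 IGKV3 clonotypes of this mouse had 0.125 per 100 nucleotides, and 84.5% of them had no mismatch, against 18.2% of the 66. The 66 clonotypes had 1169 counts, and 29 of them remained when near copies were left out.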

How the data were processed

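B cell receptor transcripts from deep cervical lymph nodes of 10 mice were sequenced in bulk. RNA was purified with an RNeasy Plus Mini kit and libraries were made with Takara's SMART-Seq kit for mouse receptors, which adds molecular identifiers, per the labels' protocols. The authors deposited 1 AIRR table per mouse, in which every sequence has a whole-number count, per the file headers. Aligner and germline set were not given in the sources used here, nor was it said how molecular identifiers were used. Gene order and names were taken from RefSeq (GRCm38.p6), in which all 118 kappa genes matched, and no coordinates were used.

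The members and lists were chosen with earlier results of these data known. All 9 members were named, with the largest IGKV3 clonotype of each mouse, the 5 found in most mice, and the 3 other genes whose centred log2 share followed the family most closely. Clonotypes were V call, J gene and junction within a mouse. Mismatches were read from the deposited alignment of the most counted sequence over at least 200 V nucleotides, and the deposited germline and query sequences gave the same number for 5978 of 5978 IGKV3 sequences. There were 36 IGKV3 sequences without a junction, which entered no clonotype. V use was tested on clonotype numbers with edgeR 4.0.16 (glmQLFit, glmQLFTest, TMM, filterByExpr) in R 4.3.3, and with DESeq2 1.42.0. On simulated numbers of 88 V calls, 20 of 20 changed by 2-fold were recovered with 0 false calls. The simulation had a fixed dispersion, and only V calls with many clonotypes were changed. It does not show whether changes smaller than 2-fold, such as those of the members, would be found. Single values were tested by exact permutation (NumPy 2.4.6) with Benjamini-Hochberg adjustment, at a threshold of 0.05. The labels do not say whether equal replicate numbers pair mice, so the main tests between groups left them unpaired. Precision is limited by 183 to 311 productive IGKV3 clonotypes per mouse.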

Additional observations from a re-analysis of the deposited data

Results flagged for a closer look

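Within each group of 5 mice, a mouse was picked out where its gap to the nearest other mouse exceeded Dixon's critical share of the group's range. Of 60 such groups, 7 held one, and chance alone gives about 1 in 20. Isotype mouse 5 had 0.389 IGKV3 V mismatches per 100 nucleotides, against 0.115 to 0.187 in the other isotype mice, and 3.16% of kappa clonotypes in IGKV3-12, against 1.11% to 1.41%. In anti-CTLA-4 mouse 2, 70.5% of IGKV3 clonotypes had no mismatch, against 83.4% to 85.9% in the other anti-CTLA-4 mice. In isotype mouse 4 the mean CDR3 length was 8.96 amino acids, against 8.91 to 8.93. By counts, IGKV3-1 had 0.480% of kappa counts in isotype mouse 2, against 0.0894% to 0.1698%, and IGKV3-3 had 0.0615% there, against 0.00703% to 0.0187%. IGKV3-2 had 0.195% in anti-CTLA-4 mouse 1, against 0.699% to 0.886% in the other anti-CTLA-4 mice.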

How the results depend on the processing

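Of 541 alternative values for 31 results, 468 kept their direction and side of the threshold, 48 changed direction, 23 lost a call and 2 gained one. Differences are anti-CTLA-4 minus isotype in percentage points unless stated, and p-values are from exact permutation tests. The IGKJ1 difference of 6.07 lost its call with counts of at least 2 (3.66), with each clonotype kept in its most counted mouse alone (15.6), by CDR3 amino acids (5.62), in non-productive clonotypes (1.84), without near copies (1.84), relative to other kappa genes (6.73), without isotype mice 3 and 4 (5.51), and with the replicate number as a block (6.07, exact permutation p = 0.0625, adjusted p = 0.250), where 5 pairs allow no exact p under 0.0625. Leaving out 1 mouse gave 5.47 to 6.80. The labels do not say whether same-numbered mice were paired. Correlations of same-numbered mice ran from -0.0991 to 0.0184 over 88 V calls, which cannot show whether they shared a cage or batch. No other result between groups had a call to lose under the block, and its exact test could add none.

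Within mice (IGKV3 minus other kappa), keeping each clonotype in its most counted mouse alone ended the calls of the non-productive share (-4.65), IGKJ1 (4.33), IGKJ2 (9.06), IGKJ4 (-1.40), the unmutated share (6.96) and log2 counts per clonotype (-1.77). IGKJ2 also lost its call with counts of at least 2 (2.76) and in non-productive clonotypes (0.627), and IGKJ4 in non-productive clonotypes (-0.230) and without isotype mice 3 and 4 (-2.36). The CDR3 length difference passed without near copies (-0.0389 amino acids), and leaving out 1 mouse gave -0.0301 to -0.0162, passing without anti-CTLA-4 mouse 4. With counts of at least 2 it turned (0.0231).

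Differences between groups that had passed no test turned direction as follows. The non-productive share was -4.17 with counts of at least 2, -1.06 without near copies, -0.0817 without isotype mice 3 and 4, and -0.946 to 1.84 without 1 mouse. Weighted by counts, mismatches differed by 0.0195 per 100 nucleotides and the unmutated share by -3.43. The share with 9 amino acids was 0.604 with counts of at least 2, 0.896 without near copies and -3.05 to 0.376 without 1 mouse. IGKJ4 was 1.19 in non-productive clonotypes. IGKJ5 was -0.781 with each clonotype in 1 mouse alone, -0.532 by CDR3 amino acids, -0.483 in non-productive clonotypes, -0.328 relative to other kappa genes, -0.175 without isotype mice 3 and 4 and -0.509 to 0.539 without 1 mouse.

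For the log2 fold changes of single genes, deposited counts turned IGKV3-1 (0.40), IGKV3-4 (-0.0932) and IGKV3-5 (0.52). Counts of at least 2 turned IGKV3-2 (0.13) and IGKV3-5 (0.12). Non-productive clonotypes turned IGKV3-2 (0.39), IGKV3-7 (0.0947) and IGKV3-12 (0.0300). Leaving out near copies turned IGKV3-2 (0.0817), IGKV3-7 (0.0586) and IGKV3-10 (-0.0514). Leaving out isotype mice 3 and 4 turned IGKV3-2 (0.24) and IGKV3-5 (0.0212). Library totals alone (-0.0173) and CDR3 amino acids (-0.00953) turned IGKV3-10. Without 1 mouse the values ran from -0.23 to 0.000988 for IGKV3-1, -0.14 to 0.10 for IGKV3-2, -0.0798 to 0.0436 for IGKV3-5, -0.0433 to 0.0848 for IGKV3-10 and -0.46 to 0.00706 for IGKV3-12. The cause of these changes was not tested. The near copies, isotype mice 3 and 4, the J shares relative to other kappa genes, mismatches before the junction, the second measure of clonotypes shared by 2 mice, and values of single genes without isotype mouse 3, isotype mouse 5 or the 3 largest clonotypes were alternatives chosen after seeing the data.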

Other observations

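The kappa genes whose share of clonotypes followed that of the IGKV3 family most closely over the 10 mice were IGKV4-59, IGKV6-25 and IGKV4-69. The root mean square difference of their centred log2 shares from that of the family was 0.135, 0.138 and 0.144, among 66 genes with at least 0.5% of kappa clonotypes. IGKV4-59 had 1.82% to 2.60% of kappa clonotypes, IGKV6-25 had 0.713% to 0.991% and IGKV4-69 had 0.585% to 0.871%. All shares of a mouse come from 1 library and sum to the same total.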
